A study of Mus musculus with 12 samples.

Results

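The lysosomal genes described here are 34 genes for proteins that work inside lysosomes or in their membrane, together with the transcription factor Tfeb. They were chosen by name, with earlier results of these data known. They comprise 11 proteases, 7 glycosidases, 3 lipid hydrolases, 3 other luminal proteins, 9 membrane proteins and 1 regulator. All 34 were found among the 54833 genes of the deposited table. Of these, 33 passed the filter on low counts and were tested among 21495 genes, and Atp6v0d2 did not pass it.

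RNA-seq was performed on tissue around the hematoma, taken from the ipsilateral caudate putamen of male wild-type C57BL/6 mice 24 h after surgery. Young and aged mice each had a sham and an ICH group of 3 samples, at an age of 8 to 10 weeks (young) or of 20 to 22 months (aged). In the ICH groups, intracerebral hemorrhage (ICH) was induced by injecting collagenase IV, an enzyme that breaks down vessel walls, into the basal ganglia, while sham mice were injected with saline. All mice were perfused with saline before the brain was removed, and each sample pooled tissue from 2 or 3 mice. The model thus gives the early response to one kind of hemorrhage, in pooled tissue of 1 sex. In bulk tissue, fewer cells of a type and less RNA per cell cannot be told apart.

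Lysosomes are acidic organelles that break down material delivered by endocytosis, phagocytosis and autophagy. Their lumen holds acid hydrolases, among them the cathepsins, and their heavily glycosylated membrane proteins protect the membrane and move products and ions across it. In the brain, microglia and infiltrating macrophages are rich in lysosomes and clear debris and red blood cells, while neurons depend on lysosomes for the turnover of proteins and lipids, and inherited loss of many of these genes causes lysosomal storage disease. TFEB and its relatives activate lysosomal genes through a short palindromic site, the CLEAR element, whose core is the E-box CACGTG.

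Because the E-box links many of these genes to TFEB, promoters were searched for it. RefSeq promoter sequences of the build GRCm38.p6, from 250 bases before to 50 bases after the annotated start, were matched for 29 of the 34 genes, and Asah1, Atp6v0d2, Ctsb, Ctsh and Npc1 had no match. CACGTG is a palindrome that reads the same on both strands. It was present for 10 of the 29 genes (34.5%), compared with 8.09% of the 27025 genes with a promoter sequence. A gene counted when any of its promoters held the site. The extended form TCACGTG on either strand, which contains the E-box, was present for 8 of 29 (27.6%) against 4.29% of all genes with a promoter sequence. The full palindrome TCACGTGA was present in 4 of 29 (13.8%) against 1.12%, in Ctsa, Ctsd, Cln3 and Mcoln1. These shares describe letters in a window and do not show binding, and the promoters of other genes were not matched to them in base composition. Both the genes and the site were chosen from what is known of lysosomes, so the higher share is a description and was not tested.

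At least 2 E-boxes stood in the promoters of 5 of these genes, Lamp1, Mcoln1, Ctsd, Ctsa and Cln3. Among all genes with a promoter sequence the share was 0.681%. Lamp1 had 4, and at least that many stood in a promoter of 0.0222% of all genes with a promoter sequence. The stretches that hold these sites are shown for 2 of these genes, Lamp1 and Mcoln1, and for the 4 E-box genes that later rose after ICH in young mice. They are written 5′ to 3′ on the strand of the gene, with each CACGTG in capitals. The Lamp1 stretch is chr8:13159081-13159160 (+), Mcoln1 chr8:3500429-3500488 (+), Ctsd chr7:142387898-142387957 (-), Cln3 chr7:126583336-126583401 (-), Ctsl chr13:64370720-64370770 (-) and Naglu chr11:101069994-101070053 (+).
Lamp1: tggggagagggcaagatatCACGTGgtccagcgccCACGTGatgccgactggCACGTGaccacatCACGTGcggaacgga
Mcoln1: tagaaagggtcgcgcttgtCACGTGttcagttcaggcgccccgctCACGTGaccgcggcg
Ctsd: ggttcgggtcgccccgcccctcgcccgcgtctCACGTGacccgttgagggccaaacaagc
Cln3: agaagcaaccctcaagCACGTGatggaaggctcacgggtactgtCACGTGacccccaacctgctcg
Ctsl: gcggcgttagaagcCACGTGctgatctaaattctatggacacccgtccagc
Naglu: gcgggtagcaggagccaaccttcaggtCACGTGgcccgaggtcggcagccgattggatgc
The Lamp1 E-boxes began 61, 45, 28 and 15 bases before the annotated start. Those of Mcoln1 began 71 and 45 bases before it. In Ctsd the site shown began 98 bases before the start, and a second one, not shown, 245 bases before it. These starts are those of RefSeq, while the gene spans given below follow GENCODE, and the 2 differ for some genes. In GENCODE the stretches of Ctsd, Cln3 and Ctsl lie within the gene, and those of Mcoln1 and Naglu run across its start.

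**Figure D1:**
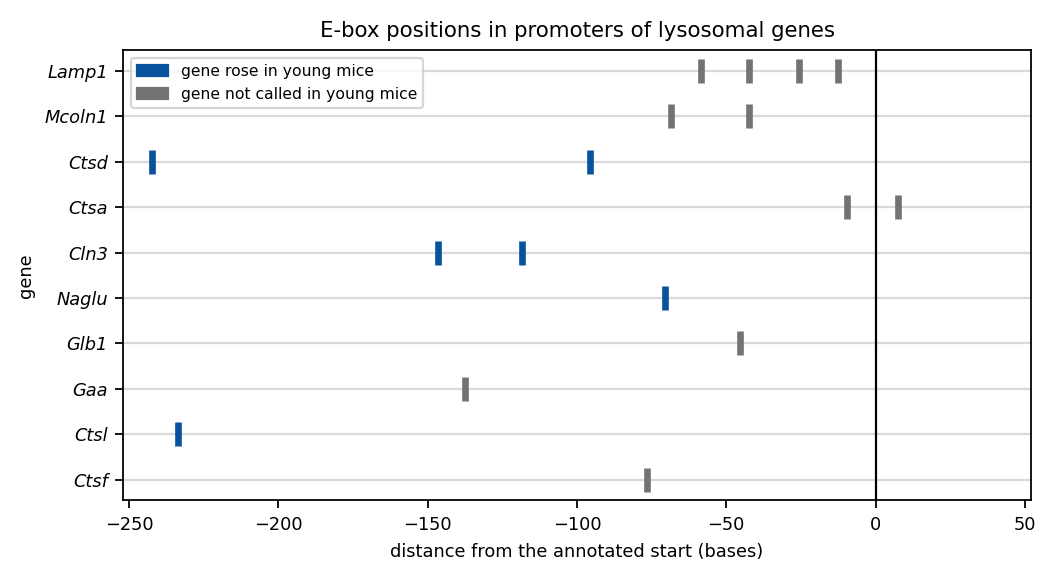
Positions of the E-box CACGTG in the 10 promoters of lysosomal genes that hold it. The x axis gives the distance from the annotated start in bases, over the window from 250 bases before to 50 bases after it, and each tick is 1 site. Ticks of genes that rose in young ICH are blue and those of genes not called there are grey. Lamp1 has 4 sites and was not called, while Ctsd, Ctsl, Naglu and Cln3 are the 4 that rose.

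The depth ranged from 28410896 to 37785160 counted reads per sample. Markers of the choroid plexus and of striatal projection neurons varied between samples, also within groups. The summed level of 6 choroid plexus markers, among them Ttr, was 4054 CPM (read counts scaled to the library's total) in young ICH replicate 3, 1550 CPM in aged ICH replicate 1 and 1965 CPM in aged ICH replicate 2, against 9.62 to 487 CPM in the other 9 samples, and edgeR called 0 of the 6 in young (0 at an unadjusted P under 0.05 and 0 by DESeq2) and 0 in aged mice (2 and 1). Markers of striatal projection neurons, which mark the labelled region, were present in every sample. Their sum ranged from 1774 to 3024 CPM in young sham, 513 to 1725 CPM in young ICH, 1513 to 2640 CPM in aged sham and 325 to 1912 CPM in aged ICH, and 0 of the 9 were called in either age (1 at an unadjusted P under 0.05 in each age, and 0 by DESeq2). The exons of some of the genes overlap those of other genes, and no strand setting is given in the sources used here. Ctsd shares 34.4% of its exon bases with Gm49369 on the same strand, and Ctsl shares 26.9% with the antisense gene Gm47123. Both of these are listed at 0 counts in all 12 samples, so the values of Ctsd and Ctsl rest on how reads in the shared stretches were assigned.

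Levels were compared between genes in FPKM, which divides by transcript length. In young sham, Psap, the precursor of the saposins that help degrade sphingolipids, was the most abundant lysosomal gene at a mean of 512 FPKM (range 508 to 519). Lamp1, a major glycoprotein of the lysosomal membrane, followed at 98.1 FPKM and Ctsb, a cysteine protease, at 97.1 FPKM, and these neighbours overlapped in their ranges. Ctss, the cysteine protease typical of microglia and macrophages, was at 60.1 FPKM, Ctsd, the main aspartic protease, at 52.1 FPKM and Gaa, which breaks down glycogen, at 50.3 FPKM. The place of Ctsd in this order rests on how reads on its shared exons were assigned. In all, 1 gene was above 100 FPKM, 18 were between 10 and 100, 14 between 1 and 10, and Atp6v0d2 was listed at 0. Tfeb was the lowest of the others at 1.27 FPKM. Of 33 neighbouring pairs in this order, 20 overlapped in their ranges over the 3 samples.

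The order shifted after ICH. Cd63, a tetraspanin of late endosomes and lysosomes, was 17th in young sham at 13.3 FPKM and 8th in young ICH at 34.1 FPKM, and it was 15th in aged sham at 17.5 FPKM and 8th in aged ICH at 44.9 FPKM. Cd68, a macrophage glycoprotein of the lysosomal membrane, was 22nd in young sham at 8.94 FPKM and 18th in young ICH at 18.1 FPKM, and it was 19th in aged sham at 11.8 FPKM and 15th in aged ICH at 22.3 FPKM. Ctsc, which activates the serine proteases of leukocytes, moved from 27th in young sham, at 5.12 FPKM, to 21st in both ICH groups, at 12.4 FPKM in young and 14.0 FPKM in aged. Psap stayed 1st and Tfeb 33rd in all 4 groups.

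Summed over the 34 genes, CPM scaled by TMM (trimmed mean of M-values, a correction for RNA composition) were 4255 ± 123 CPM (SD, n = 3) in young sham and 4698 ± 343 CPM in young ICH, a mean 10.4% higher (6.11% higher without young ICH replicate 3). They were 4297 ± 21.2 CPM in aged sham and 4752 ± 187 CPM in aged ICH, a mean 10.6% higher. As a share of all counted reads, without the TMM correction, the means were 17.5% higher in young and 16.1% higher in aged mice. The groups of each age did not overlap, in young mice by a narrow margin, with 4379 CPM in the highest sham and 4381 CPM in the lowest ICH sample. In mean CPM, 28 genes were higher in young ICH, by 603 CPM in all, and 6 were lower, with a summed difference of -161 CPM. In aged mice 26 were higher, by 599.7 CPM in all, and 8 lower, with a summed difference of -145 CPM. The same 6 genes, Ctsb, Cd63, Ctsd, Lamp2, Ctsl and Ctsc, had the largest positive differences in both ages and made up 67.0% and 68.2% of the summed positive differences. Ctsb was first, with a difference of 133 CPM in young and 137 CPM in aged mice. Psap was the most abundant gene and went the other way in CPM, with means of 1468 and 1392 CPM in young sham and young ICH, while the deposited FPKM gave 512 and 517, so its direction depended on the scale.

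To describe the response to ICH, each ICH group was compared with the sham group of its age. In young mice, 16 of the 33 tested genes rose and 1 fell, counting as called a gene whose adjusted P in edgeR's quasi-likelihood test was under 0.05. Among all genes tested, 9.89% rose and 9.23% fell in the same comparison. In aged mice, 12 of the 33 rose and 0 fell (22 had an unadjusted P under 0.05 in either direction, against 28.9% of all genes, and DESeq2 called 2 that fell), against 7% that rose and 6.15% that fell among all genes. The young and aged comparisons contrast different samples, but both come from 1 fit of all 12 samples with a shared estimate of the spread. The median log2 fold change (log2FC) of the 33 genes was 0.34 in young and 0.30 in aged mice, and that of all genes was 0.02 and 0.00. The counts depended on single samples, as did those over all genes. In young mice 7 of the 33 rose without young ICH replicate 3, 6 without young sham replicate 2 and 10 without young sham replicate 3. Of all genes, 1284 of 21992, 965 of 22022 and 1383 of 22066 rose in these fits, against 2125 of 21495 in the main fit. In aged mice 5 of the 33 rose without aged ICH replicate 1, 7 without aged ICH replicate 3, and 7 each without aged sham replicate 1 and without aged sham replicate 2. Of all genes, 409 of 21986, 751 of 22029, 751 of 22085 and 714 of 22063 rose in these fits, against 1505 of 21495 in the main fit.

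Of the 16 genes that rose in young mice, 12 also rose in aged mice: Ctsb, Ctsc, Ctsl, Ctss, Ctsz, Gusb, Lipa, Grn, Lamp2, Cd63, Cd68 and Cln3. By edgeR, Ctsd, Ctsh, Naglu and Npc2 rose in young mice and were not called in aged mice, and no gene was called in aged and not in young mice. DESeq2 called Ctsh in aged mice too (adjusted P = 0.0228), and it called Npc1 as lower in aged (adjusted P = 0.0196) and not in young mice (adjusted P = 0.191). The log2FC had the same sign in both ages for 29 of the 33. Every ICH sample was above every sham sample for 19 genes in young mice, where this held for 18.5% of all genes, and for 20 in aged mice, where it held for 17.8%. The criterion of the study was a fold change (FC) above 1.5 or below 0.67 at an unadjusted P under 0.05. The study took these values from DESeq2, and here they were taken from edgeR. By this criterion 3 genes were up in young mice, Ctsc, Cd63 and Cd68, against 8.66% of all genes. In aged mice 4 were up, the same 3 and Ctsz, against 7.24%. None was down by that criterion in young or aged mice, against 3.49% and 2.82% of all genes.

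**Figure D2:**
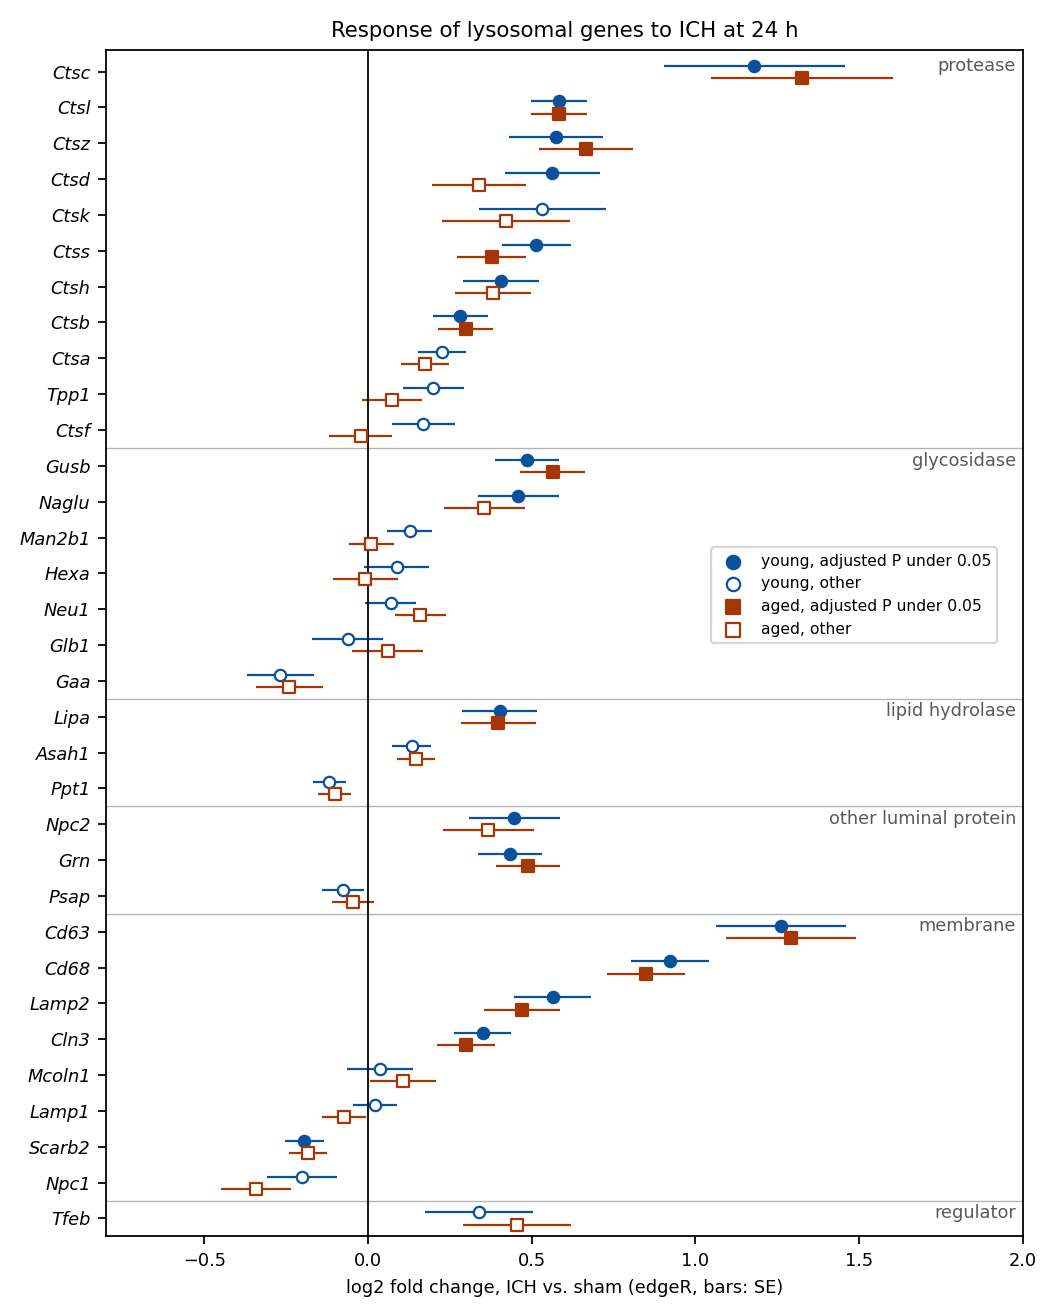
Response of the 33 tested lysosomal genes to ICH, grouped by role. The x axis gives the log2FC of ICH against sham of the same age from edgeR, with bars of 1 SE, blue circles for young and brown squares for aged mice. Filled symbols have an adjusted P under 0.05. Cd63 and Ctsc lie farthest to the right in both ages, at 1.26 and 1.18 in young and 1.29 and 1.33 in aged mice, and Gaa, Scarb2, Npc1, Ppt1 and Psap lie left of 0 in both.

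Of the 11 proteases, 7 rose in young mice and 4 were not called, with a median log2FC of 0.51 and a positive value for all 11. In aged mice 5 rose and 6 were not called, with a median of 0.38, and 10 of the 11 values were positive. Ctsl, a cysteine endopeptidase (chr13:64359337-64370890), was at 92.7, 89.6 and 92.7 CPM in young sham and at 125, 137 and 150.0 CPM in young ICH. In aged sham it was at 91.8, 84.7 and 98.1 CPM and in aged ICH at 152, 125 and 135 CPM. ICH and sham samples did not overlap at either age. The log2FC was 0.58 ± 0.09 (SE) in young (adjusted P = 0.00198) and 0.58 ± 0.09 in aged mice (adjusted P = 0.0046), and this call held in both ages in all 19 alternatives, which changed the test, scaling, filter or design or left out 1 of the 12 samples.

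Ctsc (chr7:88278085-88310888) had the largest change of the proteases and the widest spread. It was at 34.8, 26.8 and 31.6 CPM in young sham and at 58.3, 59.7 and 93.2 CPM in young ICH. It was at 35.2, 16.99 and 41.8 CPM in aged sham and at 88.8, 69.9 and 77.1 CPM in aged ICH. Young ICH replicate 3 was the high sample and aged sham replicate 2 the low one, and the groups of each age did not overlap. The log2FC was 1.18 ± 0.28 in young (adjusted P = 0.0136) and 1.33 ± 0.28 in aged mice (adjusted P = 0.0126). The call was lost in young mice without young ICH replicate 3 or young sham replicate 2, where the adjusted P reached 0.0648, and in aged mice without aged ICH replicate 1, where it was 0.0564.

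Ctsz, a carboxypeptidase of macrophages and microglia, was at 48.8, 43.6 and 51.6 CPM in young sham and at 69.2, 59.3 and 86.0 CPM in young ICH. It was at 56.9, 43.5 and 59.4 CPM in aged sham and at 93.6, 81.0 and 79.3 CPM in aged ICH. The groups of each age did not overlap. The log2FC was 0.57 ± 0.14 in young (adjusted P = 0.018) and 0.67 ± 0.14 in aged mice (adjusted P = 0.0137), and these calls were lost when the samples named for Ctsc were left out. Ctss was at 90.4, 76.6 and 88.5 CPM in young sham and at 131, 99.6 and 134 CPM in young ICH. In aged sham it was already at 117, 106 and 123 CPM, and in aged ICH at 152, 148 and 150.0 CPM. Young ICH replicate 2 was thus below all 3 aged sham samples. The log2FC was 0.51 ± 0.11 in young (adjusted P = 0.00765) and 0.38 ± 0.11 in aged mice (adjusted P = 0.0379), and the aged call was lost without any 1 of the 6 aged samples or young sham replicate 3, with an adjusted P of up to 0.135.

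Ctsb (chr14:63122462-63145923), the protease with the highest level as counted, was at 593, 606 and 642 CPM in young sham and at 753, 688 and 798 CPM in young ICH. It was at 628, 550.2 and 609 CPM in aged sham and at 787, 664 and 746 CPM in aged ICH. No ICH sample was below a sham sample of its age, and the log2FC was 0.28 ± 0.08 in young (adjusted P = 0.0385) and 0.30 ± 0.08 in aged mice (adjusted P = 0.0398). Both calls were near the threshold, and 11 of 19 alternatives kept the one in young (adjusted P of up to 0.118) and 10 of 19 the one in aged mice (up to 0.167). Ctsd (chr7:142375911-142388038), named here after its values were seen, was at 138, 124 and 122 CPM in young sham, 183, 149 and 236 CPM in young ICH, 133, 147 and 142 CPM in aged sham and 202, 177 and 154 CPM in aged ICH. It rose in young mice (log2FC 0.56 ± 0.14, adjusted P = 0.0198), and in aged mice its log2FC was 0.34 ± 0.14 (adjusted P = 0.145). The young call was lost without young ICH replicate 3, the sample at 236 CPM, where the log2FC was 0.37, or young sham replicates 2 or 3, with an adjusted P of up to 0.0747. Ctsh, an aminopeptidase, rose in young mice (log2FC 0.41 ± 0.12, adjusted P = 0.0325) and had a log2FC of 0.38 ± 0.12 in aged mice (adjusted P = 0.0508). Ctsa, Ctsk, Tpp1 and Ctsf were not called, with log2FC between 0.17 and 0.53 in young and between -0.02 and 0.42 in aged mice.

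**Figure D3:**
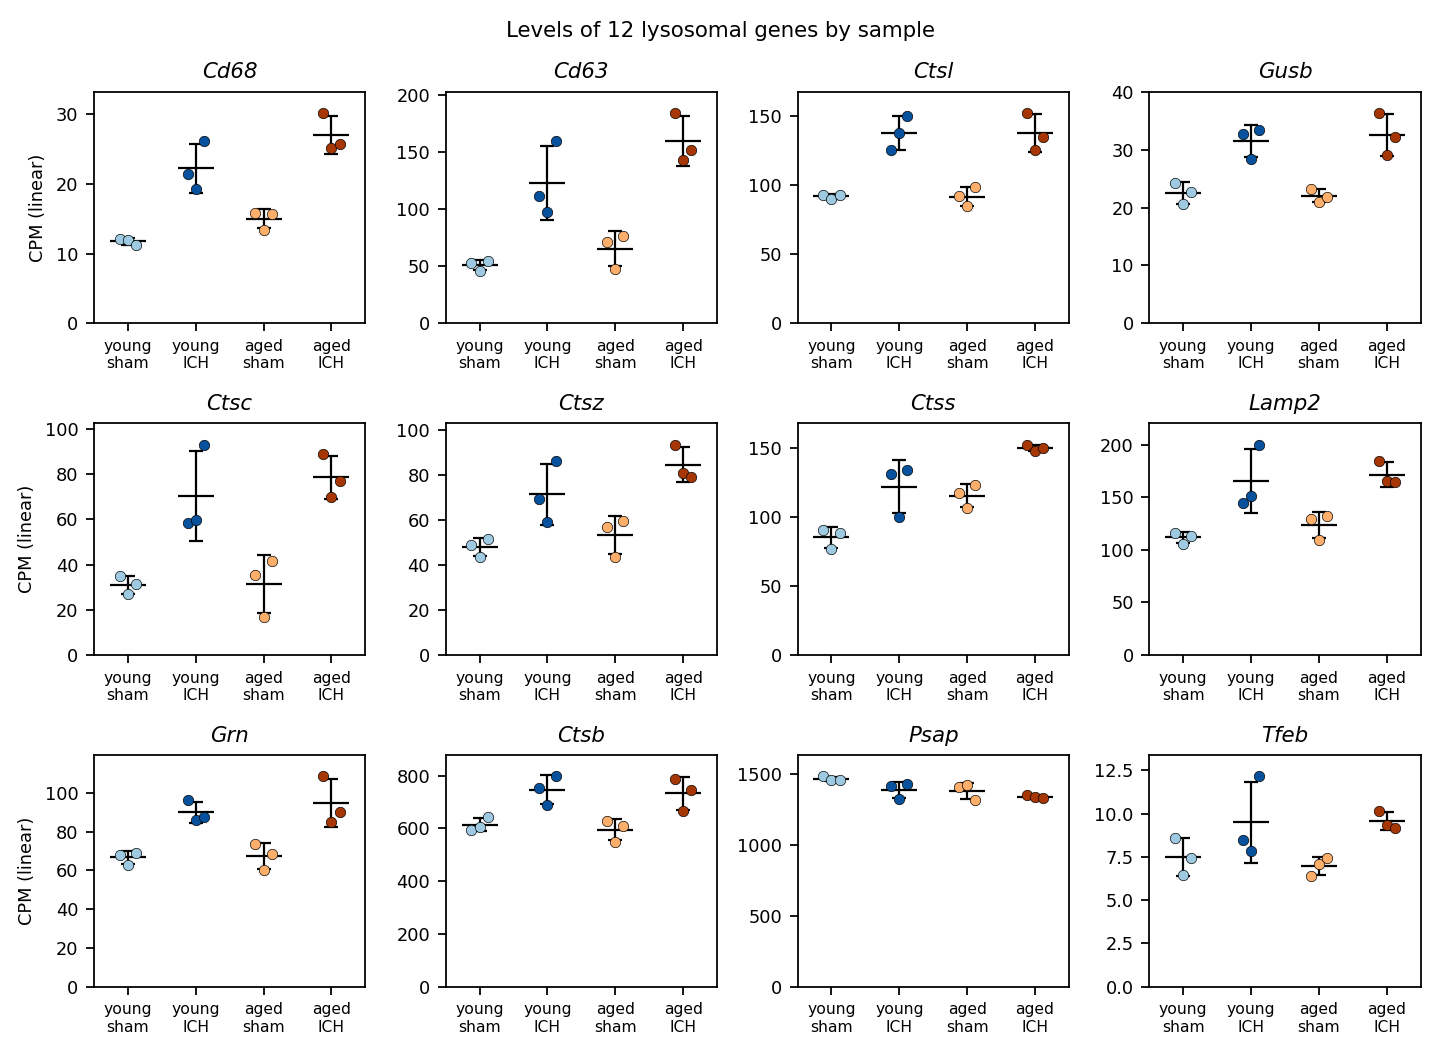
Levels of 12 lysosomal genes in each sample, in TMM-scaled CPM on linear axes that start at 0. Points are samples, horizontal bars are group means and error bars are SD (n = 3). For Cd68, Cd63 and Ctsl every ICH sample lies above every sham sample of its age, whereas the Psap samples lie between 1319 and 1486 CPM in all groups.

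Of the 7 glycosidases, which remove sugars from glycoproteins, glycolipids and glycosaminoglycans, 2 rose in young and 1 in aged mice. Gusb, the β-glucuronidase (chr5:129989011-130003049), was at 24.2, 20.6 and 22.7 CPM in young sham and at 32.8, 28.4 and 33.3 CPM in young ICH. It was at 23.3, 21.0 and 21.8 CPM in aged sham and at 36.4, 29.0 and 32.2 CPM in aged ICH. The groups of each age did not overlap, the log2FC was 0.49 ± 0.10 in young (adjusted P = 0.00696) and 0.56 ± 0.10 in aged mice (adjusted P = 0.0069), and both calls held in all 19 alternatives. Naglu, which acts on heparan sulfate, rose in young mice (log2FC 0.46 ± 0.12, adjusted P = 0.0249), and its log2FC was 0.35 ± 0.12 in aged mice (adjusted P = 0.0814). Hexa, Glb1, Man2b1 and Neu1 had log2FC between -0.06 and 0.13 in young and between -0.01 and 0.16 in aged mice. Gaa had a log2FC of -0.27 ± 0.10 in young (adjusted P = 0.09) and -0.24 ± 0.10 in aged mice (adjusted P = 0.146).

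Among the lipid hydrolases, Lipa, the acid lipase that frees cholesterol from its esters, rose in both ages, with a log2FC of 0.40 ± 0.11 in young (adjusted P = 0.031) and 0.40 ± 0.11 in aged mice (adjusted P = 0.0413). Without young ICH replicate 3 the young log2FC was 0.24 and the call was lost, as it was without any 1 of the 3 young sham samples, and 13 of 19 alternatives kept it (adjusted P of up to 0.0916). The aged call was kept in 9 of 19 alternatives and lost without any 1 of the 6 aged or the 3 young sham samples (adjusted P of up to 0.172). Its levels ranged from 21.0 to 22.1 CPM in young sham, 25.6 to 34.7 CPM in young ICH, 20.2 to 21.2 CPM in aged sham and 25.4 to 30.4 CPM in aged ICH. Asah1, the acid ceramidase, had a log2FC of 0.13 and 0.15, and Ppt1, which removes fatty acids from proteins, of -0.12 and -0.10, none of them called. Of the other luminal proteins, Grn, the progranulin that is processed in lysosomes, was at 68.0, 62.9 and 69.3 CPM in young sham and at 96.4, 86.2 and 87.7 CPM in young ICH. It was at 73.5, 60.3 and 68.5 CPM in aged sham and at 109, 85.2 and 90.0 CPM in aged ICH. The groups of each age did not overlap, and the log2FC was 0.43 ± 0.10 in young (adjusted P = 0.0114) and 0.49 ± 0.10 in aged mice (adjusted P = 0.0106). The young call was lost without young sham replicate 2 (adjusted P = 0.0565). Npc2, which carries cholesterol in the lumen, rose in young mice (log2FC 0.45 ± 0.14, adjusted P = 0.0441) although its ICH range, 57.8 to 93.2 CPM, overlapped the sham range, 49.6 to 58.9 CPM, and 7 of 19 alternatives kept that call. Without young ICH replicate 3 its log2FC was 0.23 (adjusted P = 0.127). Psap had a log2FC of -0.08 ± 0.06 in young (adjusted P = 0.438) and -0.04 ± 0.06 in aged mice (adjusted P = 0.689).

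Of the 8 tested membrane proteins, 4 rose in both ages, Cd63, Cd68, Lamp2 and Cln3. Cd68 (chr11:69664213-69666153), with the smallest adjusted P of all these genes in both ages, was at 12.1, 11.9 and 11.2 CPM in young sham and at 21.5, 19.2 and 26.1 CPM in young ICH. It was at 15.9, 13.5 and 15.7 CPM in aged sham and at 30.2, 25.2 and 25.7 CPM in aged ICH. Each ICH group was wholly above its sham group, with a fold change of 1.90 in young (log2FC 0.92 ± 0.12, adjusted P = 0.0014) and 1.80 in aged mice (log2FC 0.85 ± 0.12, adjusted P = 0.00392). Cd63 (chr10:128900989-128912822) was at 53.0, 46.2 and 54.5 CPM in young sham and at 112, 97.5 and 159 CPM in young ICH. It was at 71.0, 47.7 and 76.6 CPM in aged sham and at 184, 143 and 152 CPM in aged ICH. The fold change was 2.40 in young (log2FC 1.26 ± 0.20, adjusted P = 0.00261) and 2.45 in aged mice (log2FC 1.29 ± 0.20, adjusted P = 0.00505), without overlap of the groups of either age. The calls of Cd68 and Cd63 held in all 19 alternatives in both ages.

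Lamp2, which is needed for the fusion of autophagosomes with lysosomes, was at 117, 106 and 113 CPM in young sham and at 144, 151 and 200.3 CPM in young ICH. It was at 129, 109 and 133 CPM in aged sham and at 185, 165 and 164 CPM in aged ICH. The groups of each age did not overlap, and the log2FC was 0.56 ± 0.12 in young (adjusted P = 0.0077) and 0.47 ± 0.12 in aged mice (adjusted P = 0.0236). The aged call was lost without aged ICH replicates 1 or 3 or aged sham replicates 1 or 2, with an adjusted P of up to 0.103. Its close relative Lamp1 was not called, with a log2FC of 0.02 ± 0.07 in young (adjusted P = 0.858) and -0.07 ± 0.07 in aged mice (adjusted P = 0.513). Cln3, a membrane protein whose loss causes juvenile Batten disease, was at 14.3, 14.4 and 14.6 CPM in young sham, 17.9, 18.5 and 18.8 CPM in young ICH, 18.4, 16.5 and 18.4 CPM in aged sham and 23.5, 19.0 and 23.2 CPM in aged ICH. The young ICH samples overlapped the aged sham samples. The log2FC was 0.35 ± 0.09 in young (adjusted P = 0.0182) and 0.30 ± 0.09 in aged mice (adjusted P = 0.0436), and the young call was lost without young ICH replicate 3 or young sham replicates 1 or 2 (adjusted P of up to 0.065), while 8 of 19 alternatives kept the aged call (up to 0.179).

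Scarb2, the receptor that carries glucocerebrosidase to lysosomes, was the only one of the 33 that fell in young mice. It was at 183, 165 and 171 CPM in young sham, 148, 148 and 158 CPM in young ICH, 178, 187 and 185 CPM in aged sham and 171, 155 and 158 CPM in aged ICH. The log2FC was -0.19 ± 0.06 in young (adjusted P = 0.0407) and -0.18 ± 0.06 in aged mice (adjusted P = 0.0638), and 6 of 19 alternatives kept the young call (adjusted P of up to 0.253, with library sizes only, where the log2FC was -0.11). Npc1, which exports cholesterol from lysosomes, had a log2FC of -0.20 ± 0.11 in young (adjusted P = 0.208) and -0.34 ± 0.11 in aged mice (adjusted P = 0.0546), and DESeq2 called it and Scarb2 as lower in aged mice. The calls of Ctsh, Naglu and Npc2 in young mice were also lost without single samples, with adjusted P of up to 0.119, 0.0917 and 0.152. Mcoln1, the calcium channel TRPML1, had a log2FC of 0.04 and 0.11. Atp6v0d2, a proton pump subunit typical of osteoclasts and macrophages, did not pass the filter on low counts, with 0, 0 and 0 reads in young sham, 6, 5 and 4 in young ICH, 0, 0 and 2 in aged sham and 10, 7 and 6 in aged ICH. In an edgeR fit of all genes with a count it was called in young (adjusted P = 0.0136) and aged mice (adjusted P = 0.0384).

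Tfeb was at 8.59, 6.44 and 7.46 CPM in young sham and at 8.503, 7.82 and 12.2 CPM in young ICH. It was at 6.39, 7.08 and 7.43 CPM in aged sham and at 10.1, 9.34 and 9.18 CPM in aged ICH. The young groups overlapped and the aged groups did not, and the log2FC was 0.34 ± 0.16 in young (adjusted P = 0.173) and 0.46 ± 0.17 in aged mice (adjusted P = 0.0924). Neither was called. These are RNA levels, and the location and phosphorylation of the TFEB protein, by which it is mainly controlled, were not measured.

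Set beside the promoters shown above, 4 of the 10 genes with an E-box rose in young mice, Ctsd, Ctsl, Naglu and Cln3, with a median log2FC of 0.20 over the 10. Of the 19 matched genes without an E-box, 10 rose and 1 fell, with a median of 0.43. In aged mice 2 of the 10 with an E-box rose, Ctsl and Cln3 (median 0.14), and 9 of the 19 without (median 0.40). Of the 5 genes with at least 2 E-boxes, Ctsd and Cln3 rose in young mice and Cln3 in aged mice. Lamp1, with 4, and Mcoln1 and Ctsa, with 2 each, were not called in either age. A link between the E-boxes and the response was not tested. Split by their mean FPKM over all 12 samples, the 17 tested genes at 16.9 and above had a median log2FC of 0.20 in young mice, where 7 rose and 1 fell, and of 0.15 in aged mice, where 6 rose. The 16 with the lower FPKM had medians of 0.40 and 0.38, and 9 and 6 of them rose. Spearman's rho between FPKM and log2FC, a description across 33 genes of the same libraries, was -0.14 in young and -0.26 in aged mice.

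The ICH samples of a group did not respond alike. Young ICH replicate 3 had the highest level of the 3 samples for 26 of the 33 genes and replicate 2 the lowest for 20. Aged ICH replicate 1 had the highest for 27 and replicate 2 the lowest for 21. The samples with the highest choroid plexus sums, young ICH replicate 3 and aged ICH replicates 1 and 2, thus include the highest sample of each age and the lowest of the aged group. An alternative chosen after seeing the data left out these 3 samples. In young mice 8 of the 33 genes then rose and 0 fell, and of all 22844 genes tested there 1101 rose and 1098 fell. The 8 were Ctsd, Ctsl, Gusb, Grn, Lamp2, Cd63, Cd68 and Cln3. The median log2FC of the 33 was 0.23 in young and 0.26 in aged mice, against 0.01 and 0.00 over all genes. In aged mice this left 1 ICH sample, assumed to vary like the other groups, so only effect sizes are given. There the log2FC was 0.56 for Ctsl, 1.22 for Cd63 and 0.78 for Cd68.

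**Figure D4:**
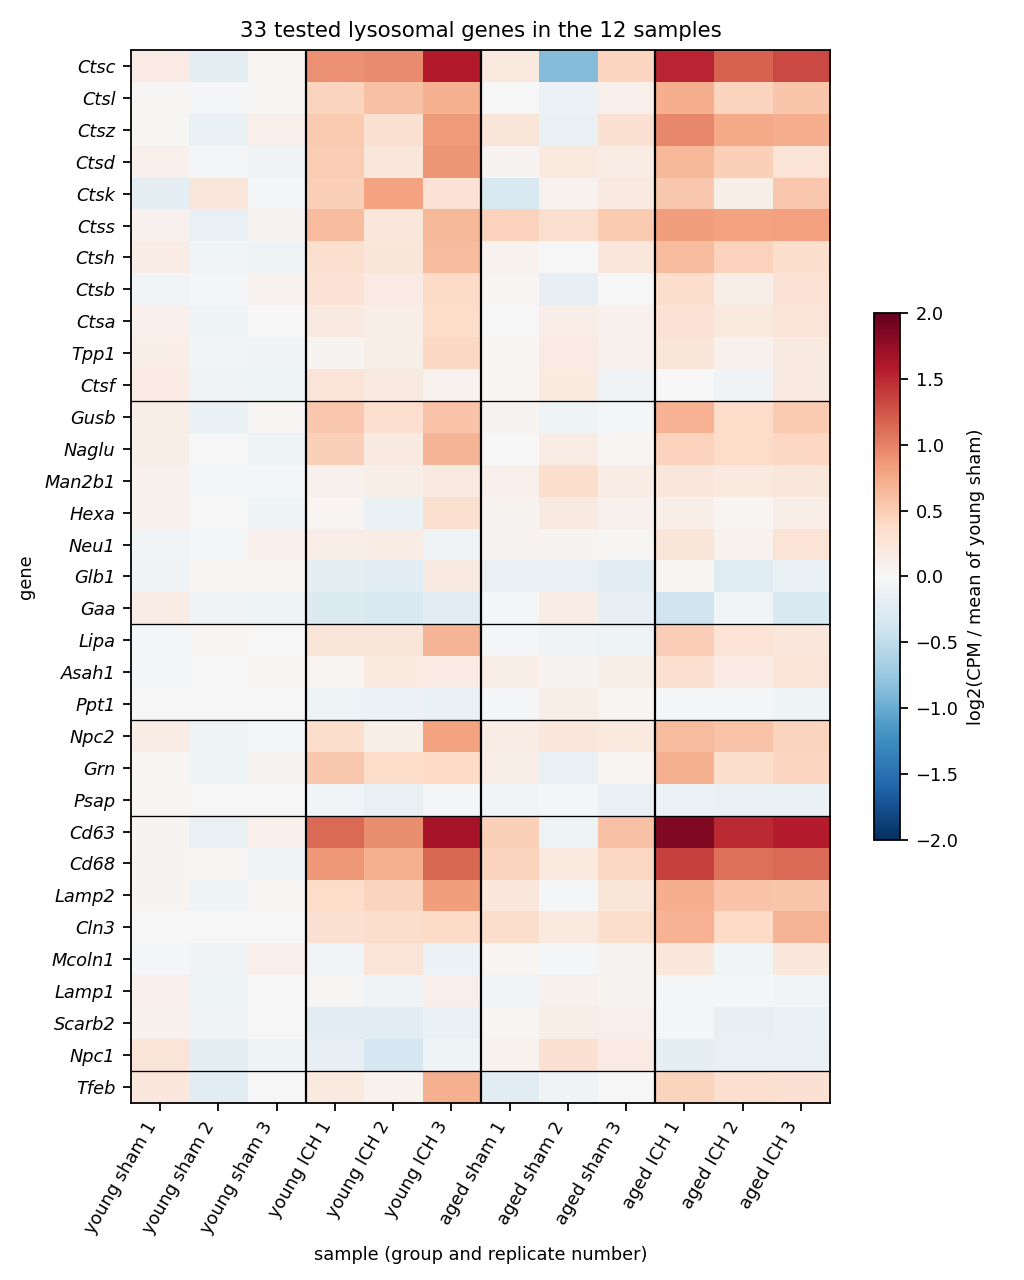
Levels of the 33 tested lysosomal genes in all 12 samples. Colour gives log2 of the CPM over the mean of young sham, red higher and blue lower, rows are genes in order of role and columns are samples by group and replicate number. Ctsc, Cd63 and Cd68 are the reddest rows in the ICH samples, and young ICH replicate 3 and aged ICH replicate 1 are the reddest columns of their groups.

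Markers of several other cell types moved with the same comparisons. The summed level of 10 monocyte and macrophage markers ranged from 145 to 160 CPM in young sham and 347 to 426 CPM in young ICH, and from 117 to 221 CPM in aged sham and 379 to 498 CPM in aged ICH, and 6 of the 10 rose in each age. That of 10 neutrophil markers ranged from 11.3 to 13.9 CPM in young sham, 22.0 to 40.0 CPM in young ICH, 16.2 to 26.9 CPM in aged sham and 40.2 to 55.9 CPM in aged ICH. Of 8 neutrophil markers tested, 7 rose in young and 6 in aged mice, and Ly6g was at 0 in 4 samples, Retnlg in 2 and Camp in 1. That of 7 border macrophage markers ranged from 10.0 to 21.6 CPM in young sham, 36.1 to 43.4 CPM in young ICH, 14.7 to 21.5 CPM in aged sham and 33.7 to 41.2 CPM in aged ICH, with 4 and 3 of 7 that rose. The sum of 9 markers of homeostatic microglia ranged from 280 to 328 CPM in young sham, 279 to 339 CPM in young ICH, 281 to 315 CPM in aged sham and 275 to 334 CPM in aged ICH. P2ry12 and Siglech, 2 of the 9, fell in each age, and Fcrls rose in aged mice (log2FC 0.65, adjusted P = 0.0233). Markers of red blood cells summed to 5.20 to 22.4 CPM in young sham and 29.0 to 121 CPM in young ICH, with 3 of 5 that rose, and to 27.8 to 39.5 CPM and 24.3 to 82.0 CPM in aged sham and aged ICH, with 0 of 5 called by edgeR or DESeq2 and 1 at an unadjusted P under 0.05. Of 7 endothelial markers 5 rose in young and 3 in aged mice, with sums of 285 to 343 CPM in young sham, 399 to 416 CPM in young ICH, 311 to 359 CPM in aged sham and 364 to 440.0 CPM in aged ICH, and 3 of 8 oligodendrocyte markers fell in aged mice. Of 8 astrocyte markers, 3 rose in young mice, and 2 rose and 1 fell in aged mice, with sums of 5687 to 6106 CPM in young sham, 6189 to 6789 CPM in young ICH, 5783 to 6552 CPM in aged sham and 6264 to 6621 CPM in aged ICH. Of 7 fibroblast and mural cell markers 2 rose in each age, with sums of 177 to 246 CPM in young sham, 262 to 327 CPM in young ICH, 204 to 245 CPM in aged sham and 226 to 257 CPM in aged ICH. Of 7 T cell markers tested, 6 had a positive log2FC in each age, with a median of 1.92 in young and 0.95 in aged mice. In young mice edgeR called 1, which rose, and DESeq2 called 2. By edgeR 5 had an unadjusted P under 0.05 there, all of them higher in ICH. In aged mice edgeR and DESeq2 called 0, and the 1 with an unadjusted P under 0.05 was lower in ICH. The summed level went the other way, and in sham it rested mainly on Cd4, with a lowest count of 549, against 25 for Lck, the next. The sum of 8 T cell markers ranged from 20.9 to 38.2 CPM in young sham and 9.25 to 28.5 CPM in young ICH. It ranged from 20.8 to 29.9 CPM in aged sham and 6.77 to 23.2 CPM in aged ICH. The part of these cells in the levels of the lysosomal genes was not tested.

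Other genes of the pathway, from lists written with earlier results of these data known, did not all move the same way. Their counts stand beside the shares of all genes given above, 9.89% that rose and 9.23% that fell in young and 7% and 6.15% in aged mice. Of 25 other lysosomal hydrolases, 8 rose and 1 fell in young mice (median log2FC 0.20), and 4 rose and 1 fell in aged mice (median 0.07). Dnase2a, which degrades DNA in lysosomes, rose in both ages (log2FC 0.65 ± 0.12, adjusted P = 0.00541, and 0.52 ± 0.12, adjusted P = 0.0201). Arsb, which removes sulfate from dermatan and chondroitin sulfate, fell in both (log2FC -0.49 ± 0.08, adjusted P = 0.00266, and -0.48 ± 0.08, adjusted P = 0.00547). Sgsh, the heparan sulfamidase, and Aga, which cleaves sugars from asparagine, rose in young mice (log2FC 0.64 and 0.60, adjusted P = 0.0133 and 0.0144), and their log2FC was 0.07 and 0.05 in aged mice. In the test of the difference between the ages, 0 of the 25 were called by edgeR or DESeq2. By edgeR 3 had an unadjusted P under 0.05 in that test, against 2.82% of all genes.

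The V-ATPase, the proton pump that acidifies lysosomes and also powers the filling of synaptic vesicles, had negative medians in both ages. Of 18 subunits and accessory proteins, 9 fell and 1 rose in young ICH (median log2FC -0.26), where 9.23% of all genes fell. In aged ICH 1 rose and 0 fell (8 had an unadjusted P under 0.05 in either direction, against 28.9% of all genes, and DESeq2 called 4 in either direction), with a median of -0.15. Aged sham was already lower than young sham, with a median log2FC of -0.18. There edgeR called 0 of the 18 and DESeq2 called 2 in either direction. By edgeR 8 had an unadjusted P under 0.05 in either direction, against 12.3% of all genes. Every ICH sample was below every sham sample for 13 of the 18 in young mice, where this held for 16.5% of all genes, and for 11 in aged mice, where it held for 17.3%, and 0 of the 18 were called in the test of the difference between the ages (0 at an unadjusted P under 0.05 and 0 by DESeq2). The 4 with the smallest adjusted P were Atp6v0d1 (log2FC -0.31, adjusted P = 0.0115), Atp6v1b2 (-0.43, adjusted P = 0.0129) and Atp6v0c (-0.35, adjusted P = 0.0181), which fell in young mice, and Atp6v0e, which rose in young (0.33, adjusted P = 0.0265) and aged mice (0.38, adjusted P = 0.0201). In aged mice the log2FC of the first 3 was -0.14, -0.32 and -0.24. In the same comparisons 3 of 8 neuron markers fell in young and 1 of 8 in aged mice, with summed levels of 6886 to 8004 CPM in young sham, 4633 to 6368 CPM in young ICH, 6549 to 7184 CPM in aged sham and 5131 to 5896 CPM in aged ICH. The part of neurons in the V-ATPase levels was not tested.

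Of 17 other lysosomal membrane proteins, 4 rose and 0 fell in young mice (7 had an unadjusted P under 0.05 in either direction, against 33.2% of all genes, and DESeq2 called 6), and 2 rose and 0 fell in aged mice (7, against 28.9% of all genes, and 4). Tpcn2, a cation channel of the lysosomal membrane, rose in both ages (log2FC 0.71 and 0.58, adjusted P = 0.00775 and 0.0244), as did Laptm5, a membrane protein of leukocytes (log2FC 0.38 and 0.39, adjusted P = 0.0318 and 0.0356). Laptm4a and Cd164 rose in young mice (log2FC 0.27 and 0.37). Of 9 genes for sorting to lysosomes, 3 fell in young mice and 2 fell and 1 rose in aged mice. Sort1, the sorting receptor sortilin, fell in both (log2FC -0.42 and -0.40, adjusted P = 0.0188 and 0.0303). Gga2 and Gga3 fell in young mice (log2FC -0.37 and -0.18), and Gnptab, which makes the mannose 6-phosphate tag, fell in aged mice (log2FC -0.26, adjusted P = 0.0245). In the test of the difference between the ages, 0 of the 17 and 0 of the 9 genes were called by edgeR or DESeq2. By edgeR 0 of either list had an unadjusted P under 0.05 in that test.

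Of 16 regulators of the MiT/TFE family and of mTORC1 tethering at the lysosome, 2 rose and 2 fell in young and 3 rose and 2 fell in aged mice. Among all genes 9.89% rose and 9.23% fell in young, and 7% rose and 6.15% fell in aged mice. Tfec, the family member found mainly in myeloid cells, rose most (log2FC 2.75 ± 0.38, adjusted P = 0.00176, in young and 2.70 ± 0.40, adjusted P = 0.00445, in aged mice). Mtor, the kinase that holds TFEB in the cytoplasm, fell (log2FC -0.37 and -0.33, adjusted P = 0.0041 and 0.0102), as did Rraga, a GTPase that recruits mTORC1 to lysosomes (log2FC -0.34 and -0.26, adjusted P = 0.00589 and 0.0288). Fnip2 rose in both ages (log2FC 0.33 and 0.38). Among the cystatins, inhibitors of the cysteine cathepsins, 4 of 8 were tested and 2 of these rose in both ages. They were Cst7 (log2FC 1.23 and 1.38, adjusted P = 0.0055 and 0.00536) and Cstb (log2FC 0.61 and 0.66, adjusted P = 0.00821 and 0.00934), while Cst3 had a log2FC of 0.16 and 0.01 and Cst6 of -0.02 and 0.14.

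**Figure D5:**
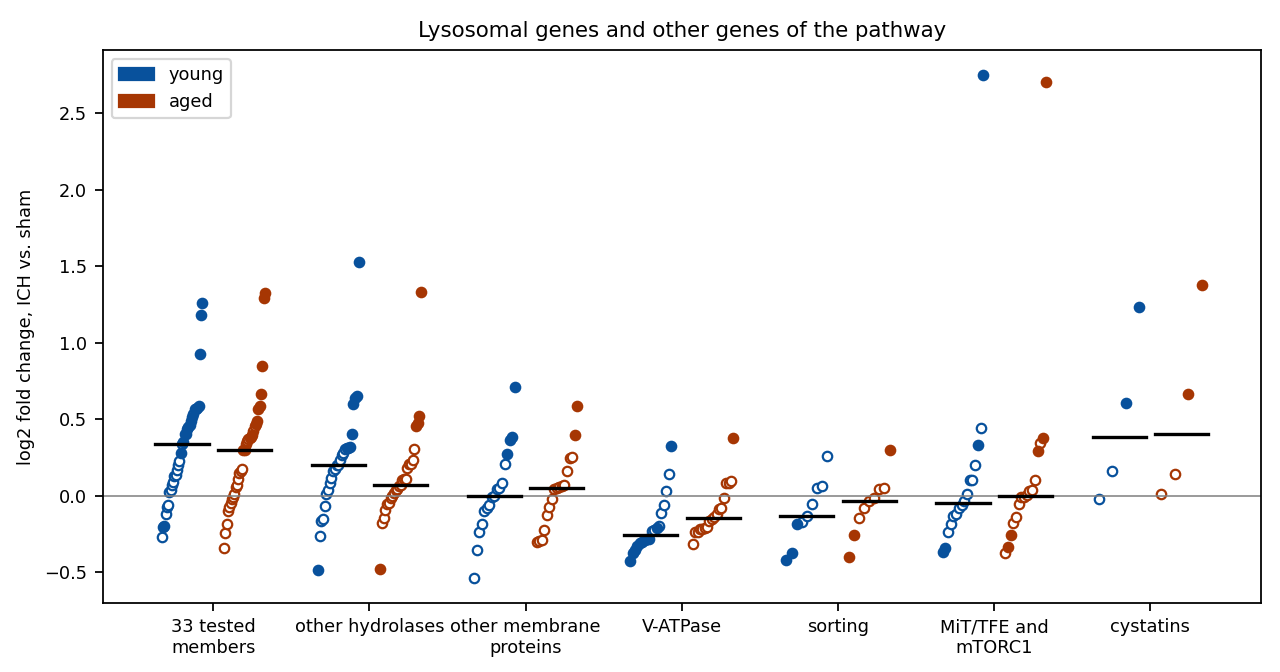
Log2FC of ICH against sham for the 33 tested lysosomal genes and for 6 other lists of the pathway, in blue for young and brown for aged mice. Each circle is 1 gene, filled where its adjusted P is under 0.05, and black bars are medians. The median of the lysosomal genes is 0.34 in young and 0.30 in aged mice, and that of the V-ATPase is -0.26 and -0.15. Tfec is the highest circle, at 2.75 and 2.70.

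To describe age without ICH, aged sham was compared with young sham. By edgeR 0 of the 33 genes were called, against 0.102% of all genes, and 4 had an unadjusted P under 0.05, against 12.3% of all genes. The 4 were Ctss (log2FC 0.44 ± 0.11, 95% interval 0.21 to 0.67, adjusted P = 0.186), Cln3 (0.30, adjusted P = 0.226), Cd68 (0.35, adjusted P = 0.28) and Man2b1 (0.20, adjusted P = 0.28). DESeq2 called 1, Ctss (adjusted P = 0.022). The 3 aged sham samples of Ctss, at 106 to 123 CPM, were all above the 3 young sham samples, at 76.6 to 90.4 CPM. The median log2FC was 0.06, against 0.01 over all genes.

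After ICH, aged was compared with young, with the same ICH samples as in the comparisons above. By edgeR and by DESeq2 0 of the 33 genes were called, against 0.0558% of all genes by edgeR, and 3 had an unadjusted P under 0.05, against 9.54%. These were Ctss (log2FC 0.30, 95% interval 0.07 to 0.53, adjusted P = 0.405), Cln3 (0.25, interval 0.06 to 0.44, adjusted P = 0.402) and Cd68 (0.28, interval 0.02 to 0.53, adjusted P = 0.487). The median log2FC was 0.05, against -0.00 over all genes.

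Whether the response to ICH differed with age was tested directly, as the difference between the log2FC in aged and in young mice. By edgeR and DESeq2 0 of the 33 genes were called, and 0 had an unadjusted P under 0.05, against 0% and 2.82% of all genes. The differences ranged from -0.23 (Ctsd) to 0.15 (Ctsc). Their precision varied by gene. For Cd68 the difference was -0.07 (95% interval -0.44 to 0.29), for Ctsl -0.00 (-0.27 to 0.26), for Cd63 0.03 (-0.57 to 0.64) and for Ctsc 0.15 (-0.70 to 0.99). For the 4 genes that edgeR called in young and not in aged mice, it was -0.23 for Ctsd (-0.67 to 0.22), -0.02 for Ctsh (-0.38 to 0.34), -0.10 for Naglu (-0.49 to 0.28) and -0.08 for Npc2 (-0.51 to 0.35), and all 4 intervals include 0.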

How the data were processed

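RNA-seq of 12 pooled samples of mouse perihematomal tissue was analysed. The authors made paired-end libraries with a NEBNext Ultra kit, aligned reads with HISAT2 to GRCm38.p6, counted reads on genes with featureCounts, and deposited raw counts and FPKM of 54833 genes. FPKM, as deposited by the authors, divide by gene length and depth. The sources used here do not give the strand setting or how reads on overlapping genes were counted.

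Counts were tested with edgeR 4.0.16 (limma 3.58.1, R 4.3.3) in a quasi-likelihood fit of all 12 samples and 4 groups, with TMM scaling and filterByExpr at a minimum count of 10, and Benjamini-Hochberg adjustment over 21495 genes. P-values measure the spread between pooled samples. DESeq2 1.42.0 was an alternative. Values in every sample are given for the 10 genes with the smallest adjusted P in each ICH comparison and for Tfeb and Atp6v0d2. They are also given for Scarb2, the 1 gene that fell, and for Ctsd, both chosen after their values were seen. For up to 4 genes of each pathway list the fold changes are given. The genes and lists were chosen with earlier results of these data known. Same-numbered samples did not deviate together (r from -0.454 to 0.235), so the fit has no block. Behavioral and RT-qPCR data were not analysed here.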

Additional observations from a re-analysis of the deposited data

How the results depend on the processing

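Among the 33 tested genes, 16 rose and 1 fell in young and 12 rose and 0 fell in aged mice. DESeq2, RLE factors, library sizes only, another filter and the replicate block gave 14 to 20 that rose in young and 11 to 15 in aged mice. No called gene changed its direction under any alternative. The 1 that fell in young mice became 0 with library sizes only, all genes with a count, the replicate block, only the groups compared and without the 3 samples high in choroid plexus markers. In aged mice 2 fell with DESeq2, and 1 each with RLE factors, all genes with a count and only the groups compared. In young mice 10 rose with only the groups compared, where fewer samples estimate the spread and 1326 of all 20401 genes tested rose. Without the 3 choroid plexus samples 8 rose in young mice, where 1101 of all 22844 genes tested rose. The median log2FC there was 0.23 in young mice and 0.26 in aged mice, where 1 ICH sample was left. Library sizes only gave a median log2FC of 0.43 in young mice, where it moved the median of all genes to 0.11 and their calls from 2125 rising and 1985 falling to 3165 and 1124. DESeq2 called 1 gene in aged sham vs. young sham. The replicate block gave 14 and 11 that rose and a median of 0.33 and 0.30. It called neither Lipa (adjusted P = 0.0524) nor Npc2 (0.0629) in young mice and not Lipa in aged mice (0.0643). Of 18 same-numbered pairs, 5 had r over 0.1, so the numbers do not pair the samples. The ratio of summed levels in aged mice was 1.11 in CPM and 1.16 in FPKM. Of the lysosomal genes matched to a promoter, 13.8% held TCACGTGA against 34.5% with CACGTG. Leaving out 1 sample at a time, 965 to 2184 of all genes rose in young and 409 to 1718 in aged mice. Of the 33, 6 to 17 rose and 0 to 1 fell in young mice in these fits (median 0.23 to 0.37). In aged mice 5 to 16 rose and 0 to 1 fell (median 0.24 to 0.36). In the comparisons of age and the interaction 0 genes were called in each case, with medians of 0.04 to 0.11 for aged sham vs. young sham, -0.01 to 0.09 for aged ICH vs. young ICH and -0.08 to 0.04 for the interaction. Ctsl, Gusb, Cd63 and Cd68 were called in both ages in all 19 alternatives, which do not include the one without the 3 choroid plexus samples. In that one they also rose in young mice, and calls in aged mice are not given because 1 ICH sample was left. Atp6v0d2, which did not pass the filter on low counts, was called in young and aged mice in the fit of all genes with a count.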
